A study of Mus musculus with 24 samples.

Results

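The interaction of time of day and exercise asks, gene by gene, whether a treadmill bout moved a cardiac transcript by a different fold when the active phase begins (ZT12) than when the rest phase begins (ZT0). ZT, zeitgeber time, is the number of hours since the lights came on. All 24 of the 24 heart libraries of the series enter it, because the value is the exercised-minus-sedentary difference at ZT12 less the same difference at ZT0, on the log2 scale. A negative value means a smaller rise or a deeper fall after the ZT12 bout, and a positive value the reverse. The 4 groups hold 6 mice each: sedentary at ZT0 (ZT0-SED), exercised at ZT0 (ZT0-EX), sedentary at ZT12 (ZT12-SED) and exercised at ZT12 (ZT12-EX). Every mouse was a male wild-type (WT) C57Bl/6 animal of 12 weeks under a 12:12 light:dark cycle, and mice handled in the dark phase were handled under red light. Mice had been accustomed to the treadmill, and the exercised ones ran once, for 60 min, at a speed of 10 m/min on a belt with 0% grade. In each group, replicates 1 to 3 came from flow cell 1 and replicates 4 to 6 from flow cell 2, and flow cell was a term of the model. The hearts are whole tissue, so fewer cells of a type and less RNA per cell cannot be told apart.

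The circadian clock is a transcriptional loop in which BMAL1 and CLOCK drive the Per and Cry genes, whose proteins then repress them. In rodents, glucocorticoid hormone peaks near the onset of activity and also rises with exertion. Its receptor binds a palindromic DNA element near targets that include Per1, Fkbp5, Tsc22d3 and Klf9. Contraction, catecholamines and heat add further signals, through CREB and its brake the salt-inducible kinase SIK1, through immediate early factors and through heat shock factor. A gene that several of these inputs share can therefore enter a bout from a low or a high resting level.

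Library totals ran from 9697334 to 23067191 counts, and levels below are CPM, a gene's counts relative to its library's total after scaling by the TMM method. Cardiomyocyte markers were abundant in every library, with a mean log2 CPM over the 12 markers of 9.74 to 12.6. Over 14 skeletal muscle markers that mean was at most 0.62 on flow cell 1, but 5.92 to 7.55 in the 3 ZT0-EX libraries of flow cell 2 and 5.72 to 6.28 in replicate 6 of the other groups, against at most 2.13 in the other 6 libraries there. The mitochondrially encoded share of counts averaged 49.7% in ZT12-SED on flow cell 1 (3 libraries), against 30.7% to 34.9% in the other groups there, and was lowest in ZT12-EX 4 at 2.70%. Results below are given without ZT12-SED 1, ZT12-SED 2 and ZT12-EX 4, 3 libraries known from earlier results to stand apart, where that matters. The part these features play in the interaction was not tested.

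No gene passed the threshold for the interaction. Among 15294 genes tested with edgeR's quasi-likelihood test, 0 (0%) had a Benjamini-Hochberg adjusted p below 0.05, and the smallest adjusted p was 0.125, for Fam107a. The value was below 0 for 7477 genes and above 0 for 7817. At an unadjusted p below 0.05 there were 1226 genes (8.02%), of which 905 (5.92%) had a positive and 321 (2.10%) a negative value. That split was 769 to 57 with library totals in place of TMM, which also moved the median of all genes from 0.01 to 0.12, and 386 to 521 with limma-voom. DESeq2 called 5 genes and limma-voom 0 on the same 24 libraries, or 11 with weights for library quality, and every gene called had a negative value. The same fit called 165 genes for exercise at ZT0 (1.08%) and 45 at ZT12 (0.294%). A gene past the threshold at ZT0 and not at ZT12 is not thereby shown to respond differently, and the median standard error (SE) of the interaction, 0.35, was larger than that of the exercise effect at ZT0 (0.25) or ZT12 (0.25). Interaction values, their 95% intervals and unadjusted p-values are therefore given as measurements, and no single gene is called.

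**Figure D1:**
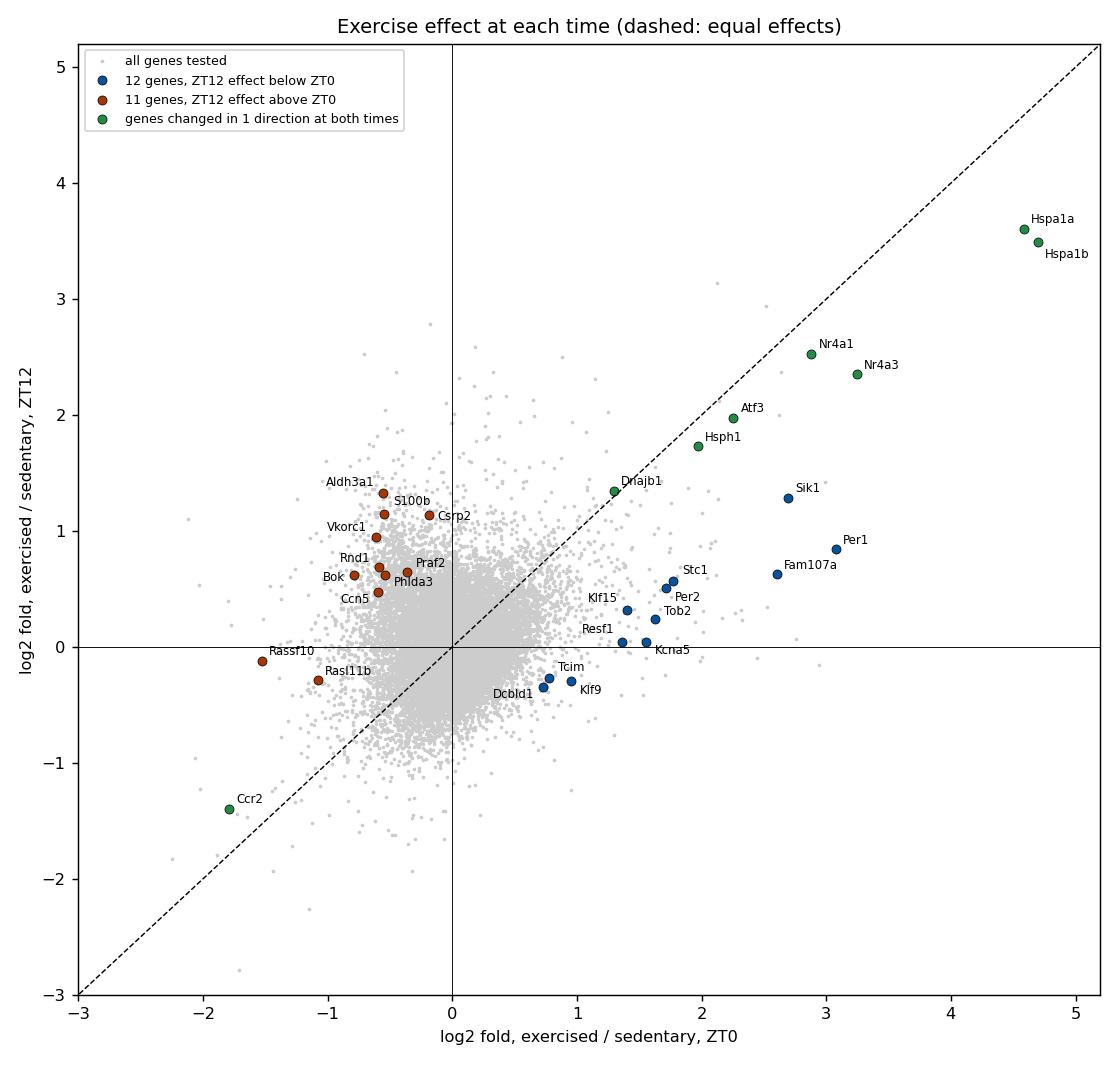
Log2 fold change of exercised over sedentary hearts at ZT0 (x axis) and at ZT12 (y axis) for every gene tested, 6 mice per group. Points on the dashed line moved equally at both times. The 12 genes with the smallest p and a negative interaction (blue) lie right of the line, between 0.73 and 3.08 at ZT0, the 11 positive genes (red) lie left of it, and genes changed in 1 direction at both times (green) reach 4.70 at ZT0 and 3.61 at ZT12.

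Among genes with the same sign on both flow cells and an average log2 CPM of 1 or more, predicted models left out, the 12 negative genes with the smallest p, in order of p, were Fam107a, Tob2, Dcbld1, Stc1, Per1, Kcna5, Tcim, Per2, Resf1, Klf15, Klf9 and Sik1. All 12 rose at ZT0, where 0.791% of tested genes rose. All 12 were also higher at ZT12 than at ZT0 in sedentary mice, as 2.46% of tested genes were. In each of the 12, every ZT0-EX library lay above every ZT0-SED library (0.987% of tested genes), and for none did the groups separate that way at ZT12 (0.170%). Only Sik1 of the 12 rose at ZT12 (0.190% of tested genes). These counts share the ZT0-SED libraries with the interaction that ranked the genes, so they describe the shape of the pattern and add no separate evidence. A shared sign on the flow cells was a condition for choosing the 12, so it says nothing of stability. As the small p of the 12 made likely, each interaction stayed below 0 without each of the 24 libraries in turn. It also did so under the settings that keep both flow cells. Without the 3 libraries that stood apart, it shrank by over 1.5 times for Klf9 (from -1.25 to -0.74) and Tcim (from -1.04 to -0.66).

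Fam107a, an actin-associated gene known as a glucocorticoid target in the brain, had the smallest p. Its level was 2.30 to 3.83 CPM in ZT0-SED (median 3.13), 10.5 to 32.9 in ZT0-EX (median 15.9), 15.9 to 38.0 in ZT12-SED (median 25.2) and 26.2 to 62.4 in ZT12-EX (median 36.7). The ZT0-SED hearts were therefore far below all others, and the sedentary and exercised hearts overlapped only at ZT12. The log2 fold change was 2.60 ± 0.26 (SE) at ZT0 and 0.63 ± 0.24 at ZT12, with adjusted p of 3.09e-06 and 0.251 from edgeR. The interaction was -1.98 ± 0.35 (95% interval -2.70 to -1.25), and flow cell 1 gave -2.19 where flow cell 2 gave -1.80. DESeq2 gave it an adjusted p of 0.00093.

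Per1 and Per2 encode the repressor arm of the clock, and Per1 is also a direct target of the glucocorticoid receptor and of CREB. Per1 stood at 2.48 to 9.14 CPM in ZT0-SED (median 4.94), 27.2 to 52.2 in ZT0-EX (median 39.4), 1.53 to 68.7 in ZT12-SED (median 27.3) and 14.9 to 83.0 in ZT12-EX (median 43.9). After the bout the medians at the 2 times were close, and the exercised groups differed by -0.01 on the log2 scale (ZT12 less ZT0), while the sedentary groups differed by 2.22. The wide ZT12-SED range followed the flow cells, with 1.53 to 9.66 CPM on flow cell 1 and 44.9 to 68.7 on flow cell 2. Within flow cell 1 every ZT12-EX library lay above these, at 14.9 to 29.9 CPM, while on flow cell 2 the groups overlapped. The interaction was -2.24 ± 0.51 (interval -3.29 to -1.18), made of a ZT0 effect of 3.08 and a ZT12 effect of 0.84. Flow cell 1 gave -1.44 and flow cell 2 gave -2.53, a difference of -1.09 (unadjusted p = 0.162, edgeR quasi-likelihood test). Without the 3 libraries that stood apart it was -2.66, and Per1 was then the 1 gene past the threshold (adjusted p = 0.00635).

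Per2 rose from 1.94 to 3.91 CPM in ZT0-SED (median 3.40) to 6.97 to 12.5 in ZT0-EX (median 11.2). At ZT12 it was 28.2 to 43.8 in sedentary hearts (median 31.9) and 22.2 to 75.1 in exercised hearts (median 49.0). All ZT12-EX libraries but ZT12-EX 4, at 22.2, lay above every ZT12-SED library, and that library is 1 of the 3 that stood apart. Both ZT12 groups lay above every ZT0 library, which sets Per2 apart from Per1. Its interaction was -1.21 ± 0.32, from 1.71 at ZT0 and 0.51 at ZT12. Per3, the third Period gene, did not follow, with a ZT0 effect of 0.36 and an interaction of -0.50 ± 0.27 (interval -1.07 to 0.06). Bmal1, whose level runs opposite to the Per genes, was 19.3 to 29.0 CPM in ZT0-SED and 0.568 to 2.49 in ZT12-SED, with an interaction of -0.39 (interval -1.12 to 0.34).

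The promoters of Fam107a, which had the smallest p, and of the clock gene Per1, which ranked after Tob2, Dcbld1 and Stc1, are shown. They hold a core of the receptor element and the clock's E-box. The windows of Tob2, Resf1 and Klf9 held no match and are not shown, so the windows printed were picked by having one. Sequences are RefSeq windows of the GRCm38.p6 build, from 250 bases before a transcription start to 50 bases after it, 5′ to 3′ on the gene's strand. Capitals mark CACGTG, the E-box, in Per1 and Klf15, and, in Fam107a and Kcna5, a relaxed core of the glucocorticoid receptor palindrome, which is GNACA, any 3 bases and TGTNC. The Fam107a window lies at chr14:8309730-8310029 on the minus strand.
Fam107a: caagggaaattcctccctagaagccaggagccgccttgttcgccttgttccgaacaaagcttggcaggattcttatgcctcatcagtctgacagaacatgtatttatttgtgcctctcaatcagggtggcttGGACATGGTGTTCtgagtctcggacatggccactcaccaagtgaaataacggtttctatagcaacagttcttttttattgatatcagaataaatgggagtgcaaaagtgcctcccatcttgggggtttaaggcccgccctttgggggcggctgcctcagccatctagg
The Per1 window lies at chr11:69098699-69098998 on the plus strand.
Per1: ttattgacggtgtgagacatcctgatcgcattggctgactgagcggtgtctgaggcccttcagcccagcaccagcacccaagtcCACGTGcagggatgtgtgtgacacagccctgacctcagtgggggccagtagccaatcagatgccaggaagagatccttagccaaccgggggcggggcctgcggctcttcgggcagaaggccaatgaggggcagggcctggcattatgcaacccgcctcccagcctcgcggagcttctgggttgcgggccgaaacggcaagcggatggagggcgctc
The Fam107a match begins at position -118 from the start and the Per1 E-box at -166. Fam107a has 2 further windows, 1 shifted by a few bases with the same match and 1 without a match, and Per1 has another without a match.

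The core palindrome occurs in 0.475% of all 32851 promoter windows of the table and the E-box in 7.15%. Of the 12 genes, 7 had windows, 10 in all, and these were searched on both strands for 5 motifs. The longer receptor palindrome, AGAACA, any 3 bases and TGTTCT (0.00913% of all windows), which contains the core, the cAMP response element TGACGTCA (1.79%) and the D-box TTATGTAA (0.938%) had no match in the 10 windows. No matches of different motifs overlapped. The motifs were chosen with the gene names known, and a match is a string of letters, not evidence of binding.

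Kcna5 encodes Kv1.5, a potassium channel that helps repolarise heart muscle, and Klf15 a transcription factor that controls fuel use and rhythmic repolarisation in the heart. Their windows are shown because Kcna5 holds the other core palindrome and Klf15 the most E-boxes, at positions -228, -172 and -3 from the start. Kcna5 lies at chr6:126535506-126535805 on the minus strand, with its match beginning at -59.
Kcna5: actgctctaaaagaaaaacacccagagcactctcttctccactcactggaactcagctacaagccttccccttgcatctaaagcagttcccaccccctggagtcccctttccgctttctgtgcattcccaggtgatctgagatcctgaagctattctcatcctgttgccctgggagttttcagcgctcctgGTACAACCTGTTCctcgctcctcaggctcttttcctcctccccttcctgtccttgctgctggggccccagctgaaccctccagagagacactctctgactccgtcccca
Klf15 lies at chr6:90462326-90462625 on the plus strand.
Klf15: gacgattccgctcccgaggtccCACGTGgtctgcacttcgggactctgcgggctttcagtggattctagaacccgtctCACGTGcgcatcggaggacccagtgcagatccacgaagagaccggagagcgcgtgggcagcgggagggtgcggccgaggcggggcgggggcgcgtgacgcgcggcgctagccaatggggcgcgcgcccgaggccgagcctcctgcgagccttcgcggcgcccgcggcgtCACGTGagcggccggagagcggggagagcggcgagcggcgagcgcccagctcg
Kcna5 rose from 6.20 to 13.8 CPM in ZT0-SED (median 8.15) to 19.3 to 34.9 in ZT0-EX (median 26.7). It was 6.83 to 26.1 in ZT12-SED (median 15.7) and 12.2 to 29.1 in ZT12-EX (median 15.2), groups that overlapped almost wholly. The interaction was -1.51 ± 0.35 (interval -2.23 to -0.78), from 1.55 at ZT0 and 0.04 at ZT12. Klf15 rose from a median of 17.8 CPM to 42.6 at ZT0, and its ZT12 medians were 39.7 in sedentary and 43.5 in exercised hearts. On flow cell 1 its ZT12 range was 13.7 to 31.1 in sedentary and 25.0 to 32.3 in exercised hearts. On flow cell 2 these ranges were 48.3 to 66.3 and 54.7 to 71.9. Its interaction was -1.08 ± 0.29 (interval -1.67 to -0.48).

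**Figure D2:**
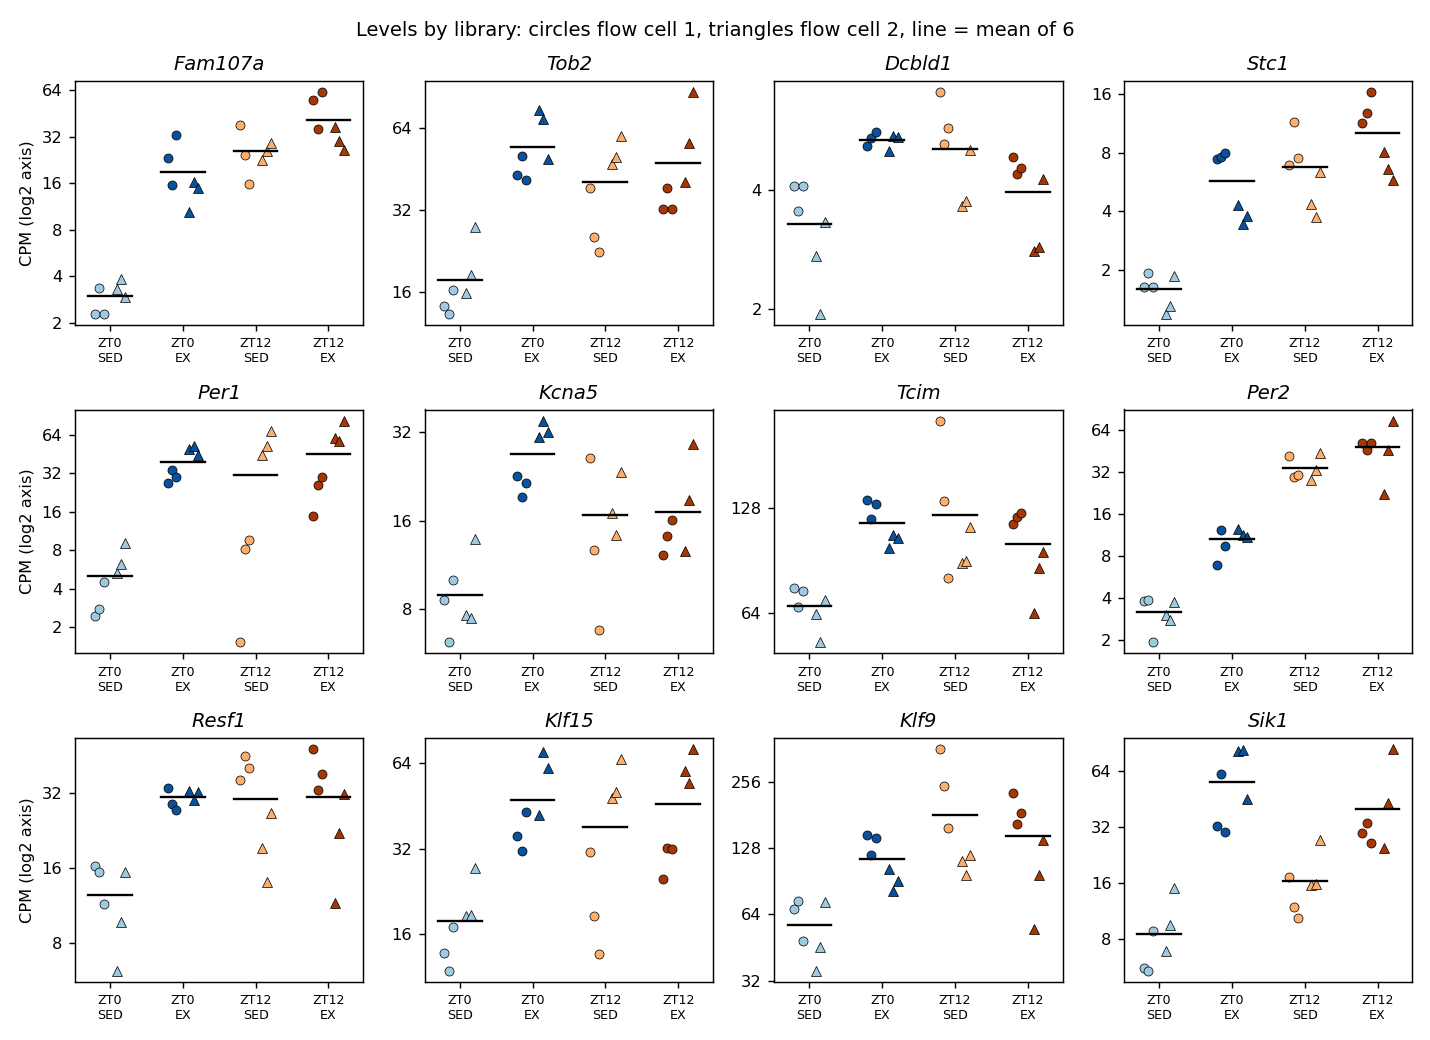
CPM (log axis) of the 12 genes with a negative interaction and the smallest p in every library, by group, with circles for flow cell 1, triangles for flow cell 2 and a line at the group mean. In each panel the 6 ZT0-EX libraries lie above the 6 ZT0-SED libraries, while the ZT12 groups overlap.

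Klf9, a steroid-induced transcription factor, and Sik1, the CREB-induced kinase that restrains CREB's coactivators, ended differently at ZT12. Klf9 rose from 35.5 to 73.5 CPM (median 58.1) to 81.5 to 147 (median 111) at ZT0. At ZT12 the exercised median of 153 was close to the sedentary 138, and the interaction was -1.25 ± 0.34. Both medians fell between the flow cells. ZT12-SED held 158 to 361 CPM on flow cell 1 and 96.7 to 119 on flow cell 2, and ZT12-EX 166 to 227 and 55.1 to 139. Sik1 rose at both times. It went from 5.42 to 15.1 CPM (median 7.92) to 30.2 to 83.1 (median 53.7) at ZT0, and from 10.4 to 27.4 (median 15.7) to 24.9 to 84.3 (median 31.6) at ZT12. Its fold change was 6.48 at ZT0 and 2.44 at ZT12, and the interaction was -1.41 ± 0.38 (interval -2.19 to -0.63). Sik1 thus kept a response at ZT12 (adjusted p = 0.0362, edgeR) while Klf9 had a ZT12 effect of -0.30 that did not pass (adjusted p = 0.496).

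Tob2, of the antiproliferative TOB family that works with the mRNA deadenylase, went from 13.4 to 27.9 CPM (median 16.1) to 41.2 to 74.6 (median 50.1) at ZT0. Its ZT12 levels were 22.5 to 59.9 in sedentary hearts (median 42.9) and 32.2 to 86.8 in exercised hearts (median 39.7). Of the 6 ZT12-SED libraries 3 lay within the ZT0-EX range, and the others were at 22.5, 25.4 and 38.6. The interaction was -1.38 ± 0.26 (interval -1.93 to -0.84), nearly the same on flow cell 1 (-1.35) and flow cell 2 (-1.40). Stc1, the secreted hormone stanniocalcin 1, rose from 1.19 to 1.93 CPM (median 1.63) to 3.42 to 8.01 (median 5.85) at ZT0. It was 3.76 to 11.6 in ZT12-SED (median 6.64) and 5.79 to 16.4 in ZT12-EX (median 9.74), so every ZT12-SED library lay above every ZT0-SED one. Its interaction was -1.20 ± 0.27.

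Of the rest of the 12, Resf1, which takes part in silencing retroelements, rose from 6.18 to 16.3 CPM (median 13.4) to 27.5 to 33.6 (median 31.0) at ZT0. Its ZT12 medians were 31.4 and 32.4, and its interaction was -1.32 ± 0.35. Tcim, a transcriptional and immune response regulator, and Dcbld1, a membrane protein with a discoidin domain, had smaller ZT0 effects of 0.77 and 0.73. At ZT12 their effects were -0.27 and -0.35, which did not pass the threshold (adjusted p of 0.419 and 0.298, edgeR). Their interactions were -1.04 ± 0.25 and -1.08 ± 0.23.

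A fold change divides by the resting level, and the resting levels of these 12 genes differed by time of day. The gain in CPM, exercised mean less sedentary mean, was therefore set beside it, a comparison added after the values were seen and given without a test. For Fam107a the gain was 16.0 ± 3.28 CPM (SE, 6 mice per group) at ZT0 and 15.1 ± 6.62 at ZT12, and the gains differed by less than their SEs. Per2 gained 7.40 ± 0.91 CPM at ZT0 and 14.4 ± 7.43 at ZT12, the reverse order from its fold changes. Stc1 gained 4.16 ± 0.88 and 3.41 ± 2.01.

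In 11 of the 12 genes the ZT12 gain was the smaller, Per2 being the exception, and in 9 of the 12 it was above 0. The 12 were chosen for a negative interaction in these same libraries, which made a smaller ZT12 gain likely beforehand. Of the 11 positive genes, chosen the other way, 0 had a smaller ZT12 gain. Tob2 gained 37.0 ± 6.04 CPM at ZT0 and 7.29 ± 10.5 at ZT12. Kcna5 gained 17.9 ± 2.87 and 0.467 ± 3.88, and Resf1 18.4 ± 1.91 and 0.510 ± 7.22. For Kcna5, Resf1 and Tob2 the ZT12 value was thus the smaller on both scales. The gains of Fam107a and Stc1 differed by less than their SEs, and those of Per2 ran in the reverse order. These SEs, wide at ZT12, had no term for flow cell, and whether any gains differed was not tested. Sik1 gained 47.4 ± 9.81 at ZT0 and 23.97 ± 9.51 at ZT12.

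Genes that respond to glucocorticoids leaned the same way as a list. Of its 26 members, all tested, 11 had a negative value at an unadjusted p below 0.05 and 0 a positive one, where 2.10% and 5.92% of all genes did, and 0 passed the adjusted threshold. The median interaction was -0.61, against 0.01 over all genes, with 23 members below 0, where 7477 of all 15294 genes were. At ZT0 13 members rose (0.791% of tested genes) and at ZT12 1 did, Cdkn1a (0.190%). The median exercise effects were 1.04 and 0.49. The median was -0.56 for flow cell 1, -0.60 for flow cell 2, -0.68 without the 3 libraries that stood apart (13 members at an unadjusted p below 0.05) and -0.47 with library totals in place of TMM. The list was drawn up with results of these samples known, so its direction is not independent evidence.

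Besides Fam107a, Per1, Klf9 and Klf15, the members counted were Cebpd, Fkbp5, Tsc22d3, Sgk1, Cdkn1a, Ddit4 and Errfi1, the last 4 named after their values were seen. Fkbp5, the receptor's co-chaperone and a standard marker of glucocorticoid action, rose from 9.19 to 14.8 CPM (median 12.8) to 19.5 to 50.2 (median 28.4) at ZT0. It was 31.8 to 59.3 in ZT12-SED (median 44.9) and 53.5 to 95.4 in ZT12-EX (median 67.9), so exercised and sedentary hearts separated at ZT0 and overlapped at ZT12, and all ZT12-SED hearts lay above all ZT0-SED hearts. On flow cell 1 alone Fkbp5 also separated at ZT12, with 31.8 to 43.9 CPM in sedentary and 59.3 to 95.4 in exercised hearts. Its interaction was -0.70 ± 0.32 (interval -1.36 to -0.04). Cebpd, a transcription factor of the acute-phase response, had an interaction of -1.45 ± 0.40, from 1.41 at ZT0 and -0.04 at ZT12. Over both flow cells its groups overlapped at both times, but at ZT0 they separated within each flow cell. On flow cell 1 it was 1.67 to 3.51 CPM in ZT0-SED and 5.95 to 8.48 in ZT0-EX. On flow cell 2 it was 10.5 to 15.0 and 25.1 to 37.5.

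Tsc22d3, which encodes the anti-inflammatory protein GILZ, had -1.01 ± 0.41 (-1.18 to -0.62 without single libraries), and Sgk1, a kinase that acts on ion transport, -1.13 ± 0.34. Ddit4, an inhibitor of mTORC1, had -1.18 ± 0.39 and Errfi1, a brake on EGF receptors, -0.81 ± 0.27. On flow cell 1 Ddit4 also separated at ZT12, with 11.9 to 31.8 CPM in sedentary and 65.2 to 87.9 in exercised hearts. On flow cell 2 its ZT12 groups overlapped, at 61.8 to 121 and 94.7 to 108. The Ddit4 interaction ran from -1.69 to -0.32 over the settings tried. Cdkn1a, the cell cycle inhibitor p21, was unlike the others at rest, since it was lower in sedentary hearts at ZT12 than at ZT0 by -0.71 on the log2 scale (adjusted p = 0.0274, edgeR). It still rose by 2.00 at ZT0 and 1.16 at ZT12, with no overlap between exercised and sedentary libraries at either time, and its interaction was -0.84 ± 0.26. The 3 members above 0 had unadjusted p of 0.295 to 0.844.

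Of the 20 clock genes, 3 had a negative value at an unadjusted p below 0.05, Per1, Per2 and Nr1d2, and 0 a positive one. Over all genes the shares were 2.10% negative and 5.92% positive, here and for the lists that follow. The list median was -0.27 over both flow cells, -0.03 for flow cell 1 in the joint fit and 0.01 with flow cell 1 fitted alone. Nr1d2, which encodes the repressor REV-ERB-beta, fell short of the exercise threshold at both times, with effects of 0.51 at ZT0 and -0.52 at ZT12, and its interaction moved from -1.03 to -0.48 without the 3 libraries that stood apart. For Nr1d1 (-0.04, interval -0.93 to 0.84) and Dbp (0.36, interval -0.43 to 1.16), other output genes of the clock, the sign depended on the setting.

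Of 28 immediate early genes tested (29 listed), 11 rose at ZT0 and 4 at ZT12, where 0.791% and 0.190% of tested genes did. Their median effects were 0.58 and 0.38. Their interaction was negative at an unadjusted p below 0.05 for 5, Zfp36, Klf6, Fosl2, Nr4a3 and Csrnp1, and positive for 0, with a median of -0.21. With library totals in place of TMM 0 were negative and 1 positive, and 2 were negative without the 3 libraries that stood apart, without ZT12-EX 4 alone or without ZT0-EX 2. Zfp36, which promotes decay of inflammatory mRNAs, had the smallest p, at -0.90 ± 0.30. Nr4a3, an orphan nuclear receptor induced by exercise in muscle, rose from 1.07 to 2.49 CPM (median 1.36) to 6.42 to 26.1 (median 15.0) at ZT0 and from 1.93 to 2.77 (median 2.65) to 5.30 to 16.4 (median 13.0) at ZT12. Its groups separated at both times and its interaction was -0.89 ± 0.42 (interval -1.76 to -0.02).

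Its relative Nr4a1 rose by 2.88 ± 0.39 at ZT0 and 2.53 ± 0.39 at ZT12, and Atf3, a stress-induced factor, by 2.25 ± 0.33 and 1.98 ± 0.34. Their interactions were -0.35 (interval -1.44 to 0.74) and -0.28 (interval -1.23 to 0.67). Csrnp1, named after its value was seen, had -0.90 ± 0.42. Fos rose at ZT0 by 1.74 ± 0.39 and had an interaction of -0.92 ± 0.56 (interval -2.08 to 0.24).

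Heat shock genes rose in similar numbers at the 2 times, 7 of 24 at ZT0 (0.791% of tested genes) and 9 of 24 at ZT12 (0.190%). The chaperone Hspa1a went from 0.542 to 3.62 CPM (median 1.69) to 5.10 to 132 (median 46.2) at ZT0, and from 1.14 to 4.60 (median 2.10) to 9.06 to 54.2 (median 27.8) at ZT12. Its exercised and sedentary groups separated at both times. Its log2 fold changes were 4.59 ± 0.54 and 3.61 ± 0.54, and the interaction of -0.98 had an interval from -2.44 to 0.48 and ran from -1.23 to -0.58 without single libraries. Hspa1b, a near-identical copy that can exchange reads with Hspa1a, had -1.21 (interval -2.94 to 0.53).

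The cochaperones were measured more tightly. Dnajb1, the HSP40 partner of HSP70, rose from 16.8 to 25.1 CPM (median 20.3) to 29.0 to 76.6 (median 46.6) at ZT0. At ZT12 it rose from 14.5 to 21.8 (median 16.7) to 31.0 to 64.5 (median 43.8). Its interaction was 0.05 (interval -0.50 to 0.60), the narrowest of the chaperones described here. Hsph1 rose by 1.97 and 1.73, with an interaction of -0.23 (interval -0.99 to 0.52). The list median was -0.18 and turned to 0.03 with library totals in place of TMM and to 0.03 without the 3 libraries that stood apart, and Dnajb4 alone was counted at an unadjusted p below 0.05 (-0.88 ± 0.43). This 1 gene is 4.17% of the list, against 2.10% of all genes.

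**Figure D3:**
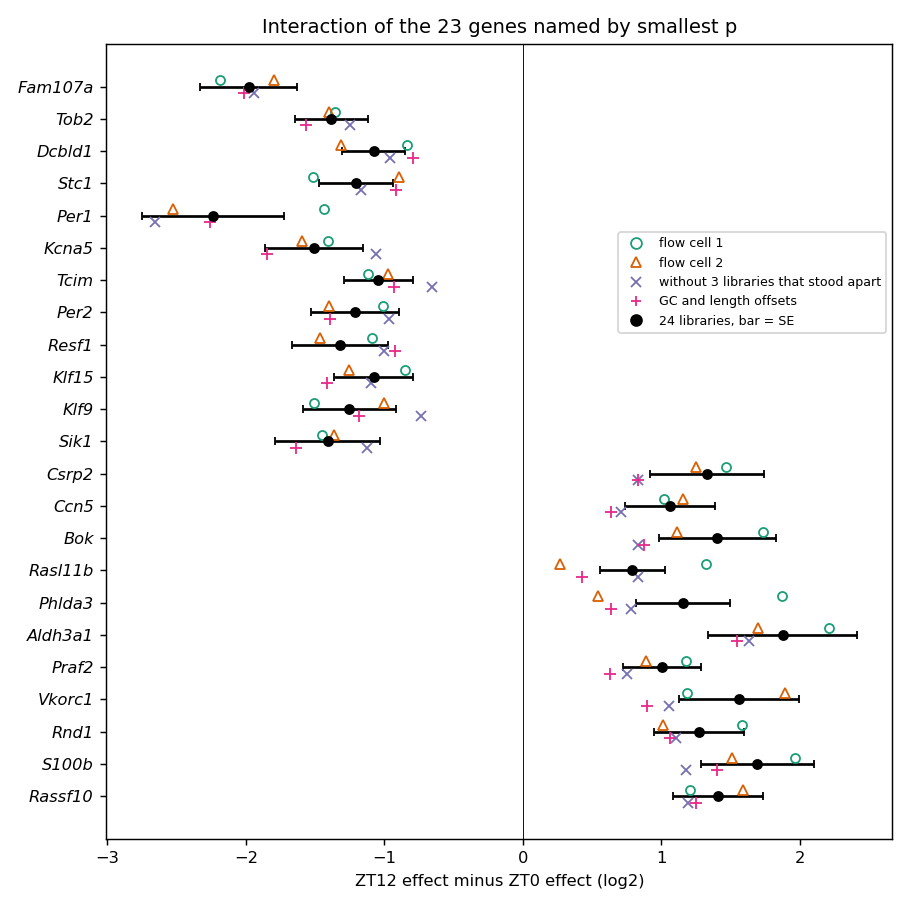
Interaction (log2, ZT12 effect minus ZT0 effect) of the 12 negative and 11 positive genes with the smallest p, with its SE over 24 libraries, beside the value on each flow cell, without the 3 libraries that stood apart and with offsets for GC content and transcript length. The negative genes keep to the left of 0 and the positive genes to the right in every variant shown, and most positive genes lie closer to 0 without the 3 libraries.

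Fuel and stress genes gave smaller counts. The shares over all genes, 2.10% negative and 5.92% positive, belong beside each count of this kind below. Of 26 genes of insulin action and fuel use, 5 were negative at an unadjusted p below 0.05 and 1 positive, with a median of -0.17. For flow cell 1 that median was 0.10, for flow cell 2 it was -0.50. The negative count was 1 with library totals, 1 without the 3 libraries that stood apart (with 0 positive) and 8 without ZT12-EX 6 or without ZT0-SED 6. Irs2, the insulin receptor substrate induced by fasting and cAMP, rose from 2.12 to 4.20 CPM (median 3.25) to 12.5 to 40.1 (median 23.9) at ZT0. It was 4.06 to 9.22 in ZT12-SED (median 7.49) and 8.54 to 51.2 in ZT12-EX (median 15.2), and its interaction was -1.57 ± 0.52 (interval -2.65 to -0.49). The other 4 were Irs1 (-0.88) and the fatty acid transporter Cd36 (-0.87), both named after their values were seen, the kinase Pdk1 (-0.73) and Foxo3 (-0.57). The lipase inhibitor Angptl4 was the positive one (1.26 ± 0.51). Pdk4, a switch from glucose to fat oxidation, had -0.21 (interval -1.11 to 0.69) and Ppargc1a, the coactivator of mitochondrial biogenesis, -0.54 (interval -1.39 to 0.30).

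Of 17 genes of CREB and salt-inducible kinase signalling, Sik1 and Nr4a3 were negative and the GTPase Rrad positive (0.80 ± 0.38) at an unadjusted p below 0.05. Among 24 potassium and calcium handling genes Kcna5 alone was (4.17%, against 2.10% of all genes negative), although 19 of the 24 lay below 0. Over all genes 7477 of 15294 did, and the list median was -0.40. That count of 1 was 10 without ZT12-EX 6, 5 without ZT0-SED 6, 5 with limma-voom and 6 with GC and length offsets. The transient outward channel gene Kcnd3 had -0.69 ± 0.40 and the kinase Camk2d -0.73 ± 0.36. Of 14 adrenergic genes tested, the receptors Adrb1 (-0.76 ± 0.34) and Adra1d (-1.67 ± 0.62) were negative. Adrb1 fell at ZT12 by 1.11 on the log2 scale (adjusted p = 0.0492, edgeR), and its interaction shrank to -0.28 without the 3 libraries that stood apart.

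Of 14 atrophy and autophagy genes tested, 4 were negative at an unadjusted p below 0.05, the ubiquitin ligase Fbxo32 (-0.90 ± 0.39), Klhl38 (-1.18 ± 0.39), Foxo3 and Bnip3 (-0.70 ± 0.33). That count was 1 with library totals and 2 without ZT12-EX 4. Of 18 hypoxia genes, Hif3a (-1.21 ± 0.50) and Bnip3 were, a count that was 5 without ZT12-EX 6 and 0 without ZT0-SED 1. Of 20 genes of the integrated stress response and endoplasmic reticulum folding, Chac1 (-1.70 ± 0.54) and Herpud1 (-0.62 ± 0.23) were negative and Ddit3 (1.31 ± 0.52) and Creld2 (0.88 ± 0.37, named after its value was seen) positive. In ZT12-EX 4 Ddit3 stood at 102 CPM and Creld2 at 41.1, against at most 22.7 and 19.1 in the other ZT12-EX libraries. Without that library the interactions of Ddit3 and Creld2 were 0.56 and 0.56, and 0 members of the list were positive at an unadjusted p below 0.05, as was so without ZT0-SED 3 and without the 3 libraries that stood apart. Chac1, an enzyme that degrades glutathione, had a median of 0.676 CPM in ZT0-SED and 2.55 in ZT0-EX, and 1.95 and 1.55 at ZT12.

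The lists described next had 0 or 1 member counted. Cardiac load genes, among them natriuretic peptides and myosin isoforms, had 0 of 18 in either direction and a median of 0.03, and collagen and matrix genes 0 of 20 and 0.03. Cytokine genes had Socs1 (1.79 ± 0.52) of 17 and cell division genes Cdk1 (1.09 ± 0.36) of 16, both positive. These are 5.88% and 6.25% of their lists, near the 5.92% of all genes. Socs1 was scarce, at 0 to 1.37 CPM over all libraries. The cell division list had 14 of 16 members above 0, where 7817 of all 15294 genes were, and a median of 0.37. Of 11 macrophage and monocyte markers tested, 2 fell at ZT0, Ccr2 and Cx3cr1 (0.288% of tested genes fell), and 1 at ZT12, Ccr2 (0.105%). The median effects were -0.30 and -0.04. Ccr2, the chemokine receptor of inflammatory monocytes, fell by 1.79 at ZT0 and by 1.39 at ZT12 on the log2 scale, with an interaction of 0.40 (interval -0.28 to 1.08). Cx3cr1, the fractalkine receptor, fell by 2.06 at ZT0 and had -0.96 at ZT12, which did not pass (adjusted p = 0.244, edgeR), with an interaction of 1.11 ± 0.48.

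**Figure D4:**
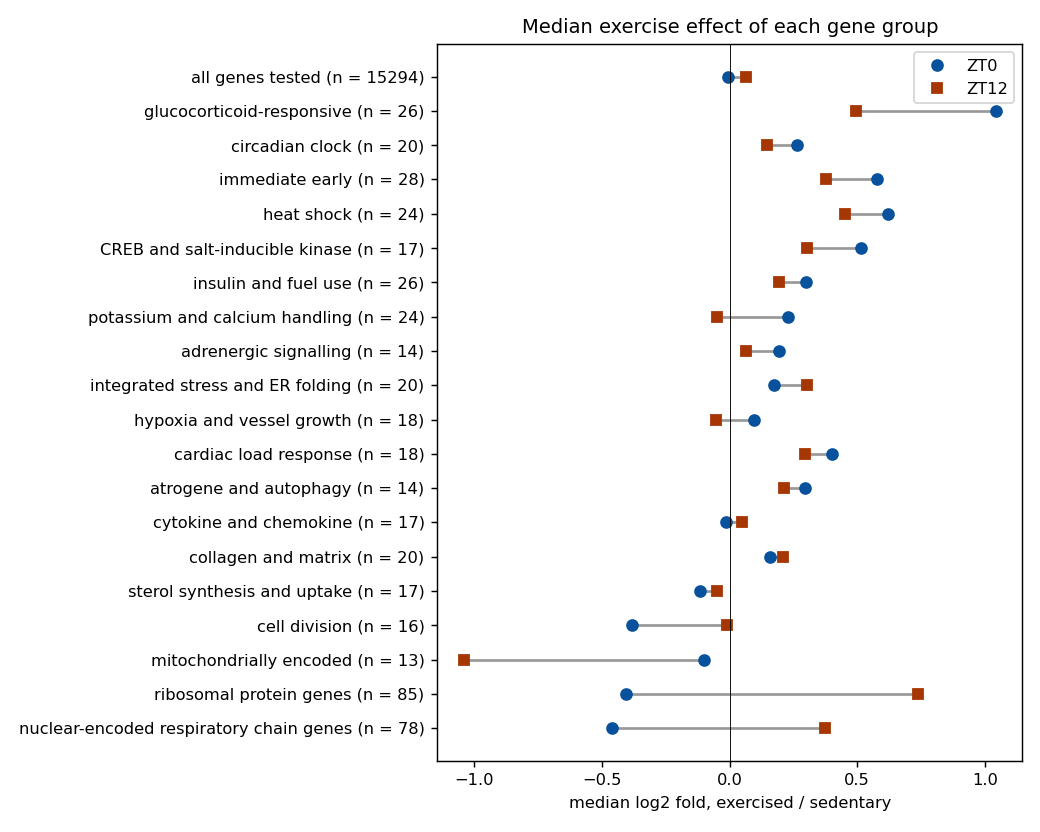
Median exercise effect (log2 fold change, exercised over sedentary) of each gene list at ZT0 (circles) and ZT12 (squares), with the number of members tested. The glucocorticoid list moves from 1.04 at ZT0 to 0.49 at ZT12, while ribosomal protein genes go from -0.40 to 0.74 and mitochondrially encoded genes from -0.10 to -1.04.

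Marker lists of other cell types moved with flow cell. The median interaction of 14 skeletal muscle markers was -1.42, made of 1.07 for flow cell 1 and -2.37 for flow cell 2, where the ZT0-EX libraries were rich in them. The 6 adipocyte markers tested had 3.14 and -0.04, and smooth muscle and pericyte markers 1.37 and 0.15. Without the 6 libraries with skeletal muscle transcripts, 742 genes had an unadjusted interaction p below 0.05.

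Under the same conditions, the 11 positive genes with the smallest p described here were Rassf10, S100b, Rnd1, Vkorc1, Praf2, Aldh3a1, Phlda3, Rasl11b, Bok, Ccn5 and Csrp2. Of the 11, 0 rose at either time, and 2 fell at ZT0, Rassf10 and Rasl11b (0.288% of tested genes fell). Only in these 2 did every ZT0-EX library lie below every ZT0-SED library (0.608% of tested genes). For the other 9, the ZT0 effect was below 0 and the ZT12 effect above 0, neither past the threshold. A gene chosen for a positive interaction is unlikely to rise at ZT0, so the 0 there follows partly from the choice. In sedentary mice 4 of the 11 were lower at ZT12 than at ZT0 and 0 higher, where 419 of 15294 tested genes were lower. The sedentary libraries also enter the interaction, so this adds no separate evidence.

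Rassf10, of the Ras association family, went from 1.85 to 4.99 CPM (median 3.68) to 0.936 to 1.51 (median 1.15) at ZT0. It was 1.73 to 3.57 in ZT12-SED (median 2.22) and 1.13 to 4.00 in ZT12-EX (median 2.19), fully overlapping. Its interaction was 1.41 ± 0.32 (interval 0.75 to 2.07), with 1.21 from flow cell 1 and 1.59 from flow cell 2. Rasl11b, a small Ras-like protein, went from 22.6 to 32.1 CPM (median 26.4) to 7.76 to 22.3 (median 12.3) at ZT0, and its ZT12 medians were 17.7 and 12.5. Its interaction of 0.79 ± 0.23 came mainly from flow cell 1 (1.32, against 0.27 on flow cell 2), and it was 0.43 with offsets for GC content and length (unadjusted p = 0.11, edgeR).

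S100b, a calcium-binding protein, was 2.30 to 5.47 CPM in ZT0-SED (median 3.16) and 1.85 to 3.02 in ZT0-EX (median 2.36). At ZT12 sedentary hearts held 1.15 to 3.25 (median 1.65) and exercised hearts 2.22 to 9.73 (median 3.41), with overlap at both times. Its highest value was that of ZT12-EX 4, and the interaction of 1.70 ± 0.41 was 1.34 without that library. Vkorc1, the vitamin K epoxide reductase subunit, had 1.56 ± 0.43, and 1.13 without it. Aldh3a1, an aldehyde dehydrogenase, had 1.88 ± 0.54 and 1.92 without it, and was the gene of the 11 with the highest ZT12 effect, 1.32 ± 0.37.

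Of the rest, Rnd1 had 1.27 ± 0.32, Praf2 1.01 ± 0.28, the Akt inhibitor Phlda3 1.16 ± 0.34, the Bcl-2 relative Bok 1.40 ± 0.42, the matricellular Ccn5 1.06 ± 0.33 and the smooth muscle LIM protein Csrp2 1.33 ± 0.41. The interaction stayed above 0 for all 11 under the settings that keep both flow cells (the sign on each flow cell was a condition of choice), and for all 11 it kept an unadjusted p below 0.05 without the 3 libraries that stood apart. It shrank by over 1.5 times for Bok (0.83) and Csrp2 (0.83). Without those libraries it ranged among the 11 from 0.71 for Ccn5 to 1.63 for Aldh3a1. The 11 were chosen for a small p in these same libraries, so keeping a small p and the sign in refits was likely beforehand.

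The positive genes as a whole were short. The 905 genes with a positive value and an unadjusted p below 0.05 had a median transcript length of 1586 bases and GC content of 52.8%, against 3172.5 bases and 49.6% over all genes tested. The 321 negative ones had 3727 bases and 45.8%. Over all genes, the median interaction fell from 0.57 in the shortest of 10 bins by transcript length (median 675 bases) to -0.28 in the longest (8102 bases). It rose from -0.38 to 0.30 from the lowest to the highest of 10 bins by GC content, from -0.60 to 0.74 for flow cell 1 and from -0.12 to 0.08 for flow cell 2. The trend with length was present on both flow cells, 0.39 to -0.33 and 0.82 to -0.24.

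**Figure D5:**
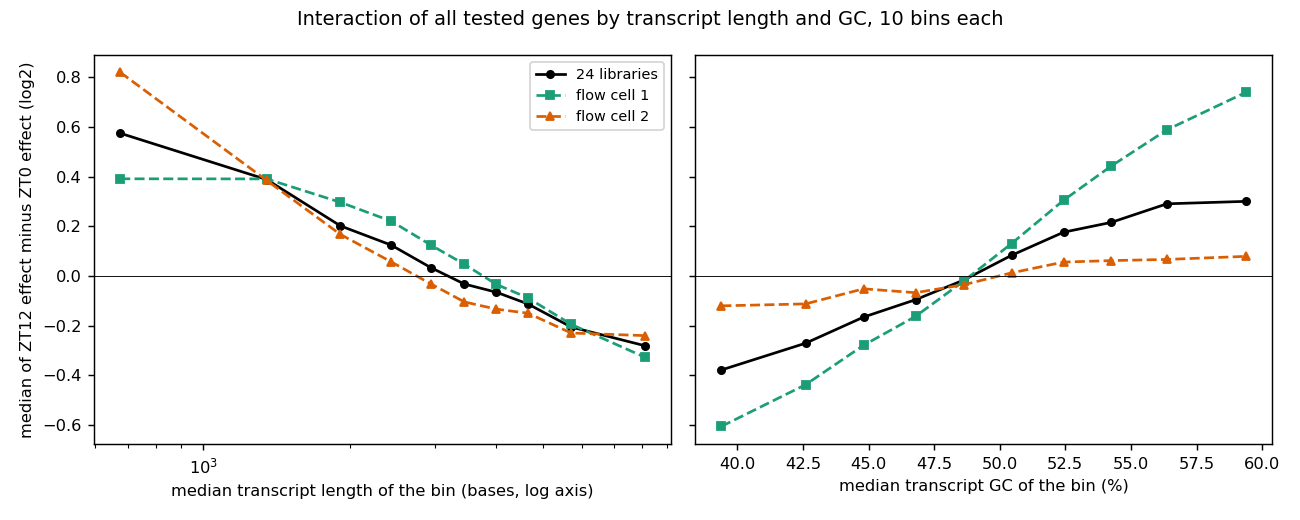
Median interaction (log2) of all tested genes in 10 bins of transcript length (left, log axis) and of GC content (right), over 24 libraries and on each flow cell. Short genes lie above 0 and long genes below it on both flow cells, and the GC trend is steeper on flow cell 1.

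Ribosomal protein and nuclear-encoded respiratory chain genes, with median transcript lengths of 1049 and 951.5 bases, went with this trend. Both groups were formed by gene symbol after the positive genes had been seen. All 85 cytosolic ribosomal protein genes had an interaction above 0, 47 of them at an unadjusted p below 0.05, with a median of 1.08 from -0.40 at ZT0 and 0.74 at ZT12. Of 78 nuclear-encoded respiratory chain genes, 70 lay above 0 and 23 had an unadjusted p below 0.05, with a median of 0.82. Over all genes 7817 of 15294 lay above 0, and 5.92% were positive at that p. In ZT12-EX 4 the ribosomal protein genes had a mean log2 CPM of 9.81, against 7.01 to 8.15 in the other ZT12-EX libraries. Without that library their median was 0.49, with 1 gene counted, and without the 3 that stood apart 0.30, with 0 counted. The 13 mitochondrially encoded genes are shorter still (median 784 bases) but went the opposite way, with a median of -0.87 that was -0.11 without the 3 libraries. The smallest p among them was that of mt-Nd4l (-2.19 ± 0.63).

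Of the 905 positive genes, 146 (16.1%) kept the sign and an unadjusted p below 0.05 without the 3 libraries that stood apart, and of the 321 negative genes 85 (26.5%). Without ZT12-EX 4 alone, the shares were 30.5% and 67.0%. With offsets for GC content and length they were 49.2% and 72.6%. All 12 leading negative genes kept an unadjusted p below 0.05 in each of these fits and with 2 surrogate variables. They were chosen for the smallest p in these same libraries, so that was likely beforehand and does not measure stability.

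Groups also differed in spread. Residuals on the log2 CPM scale had a median SD of 0.39 in ZT0-SED, 0.25 in ZT0-EX, 0.41 in ZT12-SED and 0.47 in ZT12-EX, while the edgeR fit used 1 spread for all groups. With weights for library quality, limma-voom passed 11 genes, Per1, Tob2, Fam107a, Stc1, Cebpb, Kcna5, Klf15, Adora2b, Tcim, Sgk1 and Plekhf1, all negative. Cebpb, Adora2b, Sgk1 and Plekhf1 were named after these values were seen. Adora2b, the low-affinity adenosine receptor, was scarce, with medians of 0.334 CPM in ZT0-SED, 1.04 in ZT0-EX, 1.04 in ZT12-SED and 0.875 in ZT12-EX, and its interaction in the shared-spread fit was -1.94 ± 0.46. Cebpb, a transcription factor of liver and fat, had -1.79 ± 0.53 and the endosomal protein gene Plekhf1 -0.86 ± 0.35.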

How the data were processed

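Poly-A RNA-seq of whole mouse hearts was deposited as gene counts, 52350 genes in each of 24 files. The authors made these counts with Trimmomatic 0.39, HISAT2 2.2.1 and featureCounts 2.0.1 on GRCm39, per the submitters' processing notes; the sources used here give no strand setting, no treatment of multiply mapped reads and no interval from bout to collection. Reads of overlapping or antisense genes may therefore be mixed. Identifiers without a symbol numbered 257 and held 0.0013% of counts. The sample titles call the replicates biological and say no more of them, so p-values measure the spread between these mice, 6 per group.

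Library totals of 9697334 to 23067191 counts set the precision. In R 4.3.3, edgeR 4.0.16 (filterByExpr, TMM, robust quasi-likelihood F test, 4 groups plus flow cell) was fitted to all 24 libraries, and p-values were Benjamini-Hochberg adjusted over 15294 genes at a threshold of 0.05. All p-values without another tool's name come from it. Intervals are 95%. CPM are TMM-scaled. DESeq2 1.42.0, limma 3.58.1 (voom) and sva 3.50.0 (2 surrogate variables) were alternatives, with other scalings, filters, GC and length offsets, single flow cells, a replicate block and libraries left out. Only the edgeR fit of the interaction was run on simulated counts, which gave every gene the same spread, unlike these data.

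Genes named are the 12 lower and 12 higher genes with the smallest p whose sign was shared by the flow cells and whose log2 CPM averaged 1 or more, leaving out predicted models; genes past the threshold in any of the edgeR, DESeq2, voom, GC-offset or surrogate-variable fits; up to 3 members per gene list; and a preselected set, of which some list members are not printed. Of the 12 higher genes 1 is not reported here, nor are 2 list members. Others are marked where named. Members, lists and motifs were chosen with earlier results of these data known. Promoter windows are from RefSeq, GRCm38.p6.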

Additional observations from a re-analysis of the deposited data

Results flagged for a closer look

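In 38 genes, each group of 6 was searched for a library far from the other 5 by Dixon's ratio at its 95% critical value. Of 156 groups tested, the mitochondrial share included, 15 had one, and chance gives about 1 in 20. Their causes were not tested.

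Among the genes with a negative interaction, Tob2 was 27.9 CPM in ZT0-SED 6, against 13.4 to 18.5 in the other ZT0-SED libraries. Tcim was 226.1 in ZT12-SED 1, against 80.8 to 134 in the rest of its group. Sik1 was 84.3 in ZT12-EX 6, against 24.9 to 43.2. Irs2 was 4.06 in ZT12-SED 3, against 7.29 to 9.22, and 51.2 in ZT12-EX 6, against 8.54 to 23.1.

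Among the genes with a positive interaction, ZT12-EX 4 held 2 of the values. S100b was 9.73 there, against 2.22 to 3.95 in the other ZT12-EX libraries. Vkorc1 was 21.4, against 3.73 to 8.97. Aldh3a1 was 9.03 in ZT12-EX 5, against 2.14 to 4.64. Ccn5 was 16.75 in ZT0-SED 4, against 6.21 to 10.04, and 8.80 in ZT0-EX 4, against 5.05 to 6.42.

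Among the genes that changed at both times, Hspa1b was 9.78 in ZT12-SED 1, against 1.36 to 3.49. Nr4a3 was 5.30 in ZT12-EX 4, against 12.3 to 16.4. Atf3 was 7.01 in ZT0-SED 4, against 4.17 to 4.94, and 37.0 in ZT12-EX 5, against 6.92 to 15.2. Cdkn1a was 19.4 in ZT12-SED 6, against 7.67 to 11.4.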

How the results depend on the processing

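The 12 negative and 11 positive genes with the smallest p kept their sign under all 17 alternatives and without each of the 24 libraries (on each flow cell alone by the way they were chosen), and causes of the changes below were not tested. The count of genes past the adjusted threshold for the interaction, 0 in the edgeR fit, was 1 without a filter on low counts, 5 with DESeq2, 11 with voom quality weights, 2 with GC offsets, 2 with GC and length offsets, 1 with surrogate variables, 1 without the 3 libraries that stood apart and 0 to 1 without single libraries. The 1 gene was Per1 without ZT12-SED 1, Fam107a without ZT12-SED 3 and Tob2 without ZT12-EX 6. The 1226 genes at an unadjusted p below 0.05 became 1893 without a filter, 456 without the flow cell term, 462 on flow cell 2 alone, 600 with surrogate variables, 414 without the 3 libraries, 742 without the 6 with skeletal muscle transcripts and 562 (without ZT0-SED 3) to 2360 (without ZT12-EX 6) without single libraries. Single libraries that moved that count by over 1.5 times were also ZT12-EX 4 (624), ZT0-SED 6 (2323), ZT0-EX 4 (725), ZT0-EX 5 (752) and ZT12-SED 2 (814). The interaction by flow cell, with 0 genes called, had 22 without a filter and 0 without any single library.

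The 165 genes called for exercise at ZT0 became 85 with library totals, 267 with DESeq2, 2257 with voom quality weights, 51 without the flow cell term, 39 and 13 on flow cells 1 and 2, 277 with GC and length offsets, 517 with surrogate variables, 381 without the 3 libraries and 51 without the 6. Single libraries gave 91 to 231. The 45 at ZT12 became, in the same order, 25, 221, 137, 10, 20 and 4, 90 and 83, with 22 to 77 for single libraries. The 795 genes called for time of day in sedentary mice became 234 with library totals, 478 without a filter, 2845 with DESeq2, 129 without the flow cell term, 6552 and 35 on flow cells 1 and 2, 515 with GC offsets, 323 with surrogate variables, 437 without the 3 libraries and 3133 without the 6, with 305 to 3273 for single libraries. The 252 in exercised mice became 85 with library totals, 535 with DESeq2, 3189 with voom quality weights, 62 without the flow cell term, 17 on flow cell 2, 391 with GC offsets, 607 with GC and length offsets, 1142 with surrogate variables, 1017 without the 3 libraries and 86 without the 6, with 135 to 455 for single libraries.

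Signs turned for interactions near 0. With voom quality weights Hspa1b was 0.48, Hspa1a 0.21, Bmal1 0.12, Dbp -0.28, Hsph1 0.28 and Pdk4 0.27. Without the 3 libraries Hspa1b was 0.013, Bmal1 0.017, Dbp -0.25, Hsph1 0.11 and Pdk4 0.19. Surrogate variables gave Dbp -0.17, Hsph1 0.19 and Pdk4 0.16. GC offsets gave Dbp -0.017 and Dnajb1 -0.15, and with length Dbp -0.092 and Dnajb1 -0.13. Flow cell 1 alone gave Hsph1 0.0072, Pdk4 0.26, Dnajb1 -0.075 and Nr1d1 0.71, and flow cell 2 alone Nr4a1 0.091 and Atf3 0.043. Library totals gave Pdk4 0.063, and without the 6 libraries Hsph1 was 0.20 and Pdk4 0.016. Without single libraries the ranges were -0.63 to 0.11 for Nr4a1, -0.66 to 0.10 for Atf3, -0.38 to 0.012 for Pdk4, -0.066 to 0.20 for Dnajb1 and -0.23 to 0.12 for Nr1d1.

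Same-numbered libraries of different groups were in general no more alike than others. Of 36 such pairs, 14 had deviations correlated over 0.1, with a median of -0.057 and a range from -0.573 to 0.728. Pairs with different numbers had a median of 0.0185. Yet replicate 6 of all 4 groups had a skeletal muscle marker mean of 5.72 to 6.28. Whether some numbers mark shared handling was not tested. With the replicate number as a block, 0 genes passed for the interaction and 1038 had an unadjusted p below 0.05, 442 positive and 596 negative, and 31 were called for exercise at ZT12. Counts of list members at an unadjusted p below 0.05 moved by over 1.5 times under some setting for every list of the report with a counted member. Depth limits genes near or below 1 CPM most, such as Rassf10, Adora2b, Adra1d and Socs1.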
